A study of Macaca mulatta with 13 samples.

Results

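Translation initiation and elongation factors are the proteins that bring a messenger RNA, the initiator tRNA and the ribosome together and then move the ribosome along the message. Their transcripts were described here in peripheral blood mononuclear cells, the lymphocytes and monocytes of blood, of rhesus macaques. The members were all genes whose platform annotation gives a single symbol beginning with EIF1 to EIF6, EEF1 or EEF2, leaving out the EIF2AK kinases and EIF1AY. This rule found 43 genes on 97 probe sets, of 14133 genes named by 1 symbol and 52865 probe sets on the array, and it used no measured value. The animals were 4 months old and fell into 3 rearing groups: 5 maternally reared, 4 peer reared and 4 surrogate-peer reared. Total RNA from the cells of each animal was hybridised to 1 Affymetrix rhesus array, 13 in all, and the study asked whether expression depends on early rearing. The labels give no genotype, treatment, sex or batch for any group, do not describe the peer or surrogate-peer rearing further, and name no origin shared by animals. Peer and surrogate-peer animals together are called the 8 non-maternal animals; the number of an animal within its group is only a name, and values are given in that order.

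Translation starts when eIF2, in its GTP form, carries the initiator tRNA to the small ribosomal subunit with the help of eIF1, eIF5 and the large eIF3 complex, and the loaded subunit is placed on capped messages by eIF4F. The exchange factor eIF2B recharges eIF2 with GTP, and phosphorylation of the alpha subunit of eIF2 by stress kinases blocks that step. After the subunits join, eEF1A delivers each aminoacyl-tRNA, the eEF1B complex recharges eEF1A, and eEF2 translocates the ribosome. Resting blood lymphocytes translate little, and activation raises both their translation and their supply of these factors. Several of the transcripts begin with a terminal oligopyrimidine (TOP) tract, through which mTORC1 controls their translation with that of ribosomal protein messages.

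Values are log2 expression per probe set. A gene is represented by its probe set of highest mean over the 13 arrays, called its main probe set, and levels of different probe sets are not ranked against each other. A probe set was tested when that mean exceeded 6.04, and 40 of the 43 genes passed, on 81 probe sets. EEF1A2, the eEF1A form of muscle and neurons, had a mean of 5.68, and EIF4E, the cap-binding subunit of eIF4F, a mean of 5.55, so neither was tested. In non-maternal and maternal animals EEF1A2 had means of 5.66 and 5.73, and EIF4E 5.52 and 5.60. EIF5A2 passed narrowly, at 6.06, with 6.17 in non-maternal and 5.88 in maternal animals. It was thus tested only through the animals in which it was higher, and it counts among the positive members below. EEF1A1 is represented by 4 of the array's own control probe sets, which stay out of the fit, and is described separately. Fold changes are differences of group means on the log2 scale with the standard error (SE) of a limma fit across all tested probe sets, and adjusted p-values are limma's moderated test, two-sided, with Benjamini-Hochberg adjustment over all 26383 tested probe sets. A call means an adjusted p under 0.05.

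The arrays held the cell types of the labelled sample. T cell CD8A (mean 11.44), B cell CD79B (10.47), monocyte CD14 (11.38) and LYZ (12.86) and cytotoxic GZMB (11.78) were far above the filter. Transcripts of other blood cells were present too: the platelet genes PPBP (13.85) and PF4 (13.31) and 5 of 7 measured neutrophil genes, among them CAMP (12.18), CSF3R (10.92) and DEFA1 (9.77), passed it, and the neutrophil genes ELANE (5.80) and MMP8 (4.39) did not. The 5 maternal arrays had a smaller spread of values over probe sets, with SDs of 2.10 to 2.12 against 2.13 to 2.16, and higher medians, 6.048 to 6.060 against 5.995 to 6.043. The 3' to 5' log2 ratio of the actin and GAPDH control probe sets, a measure of RNA integrity and labelling, was 1.86 ± 0.28 (SD, n = 5) in maternal and 1.47 ± 0.14 (SD, n = 8) in non-maternal animals. Over all tested probe sets 2107, or 7.99%, were called between non-maternal and maternal animals, 83.1% of them higher (1751) and the rest lower (356, or 1.35%). That split rests on the deposited scaling: after each array was centred on its median, 1093 were higher and 830 lower, and the median fold change of all tested probe sets moved from 0.01 to -0.06. Those array differences move with the groups in every comparison against maternal animals, and their part in the results was not tested.

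Most translation factors had slightly higher values in non-maternal than in maternal animals, and few differences passed the test. Of 40 tested genes 32 had a positive and 8 a negative fold change, with a median of 0.20 and quartiles of 0.07 and 0.30, against a median of 0.0049 over all 9665 named genes tested and 0.0875 over the 4832 of them with the higher means. Positive fold changes made up 80% of the members, 50.7% of named genes and 62.7% of those with the higher means. EEF1D and EIF3M rose, and no member fell. These 2 of 40 are 5% of the members, against 6.29% of all named genes called higher and 1.69% called lower. Of the named genes with the higher means 8.36% were called higher, so the share called was not above the background. The fold changes ran from -0.28 for EIF4E3 to 0.60 for EIF3L. Of the members 12 positive ones, 30%, and 1 negative one had an unadjusted p under 0.05 (limma), against 18.7% and 11% of named genes. Of the 4832 named genes with the higher means, 1212 positive and 400 negative ones had such a p. In a bulk sample, fewer cells of a type and less RNA per cell cannot be told apart, and this applies to every difference given here. The number of calls depends on single animals: it was 9 without maternal animal 1, 0 without maternal 4 or 5, peer 1 or 2 or surrogate-peer 3, 1 without maternal 3, peer 3 or 4 or surrogate-peer 1, 2 or 4, and 3 without maternal 2. Calls over all tested probe sets moved too, from 7.99% to 18.3% without maternal 1, 0.11% without maternal 4 and 0.216% without maternal 5. They were 1.18% without peer 1, 2.9% without peer 2, 1.88% without surrogate-peer 3 and 4.62% without maternal 2. Without any of the remaining animals they were 3.38% to 5.23%.

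**Figure D1:**
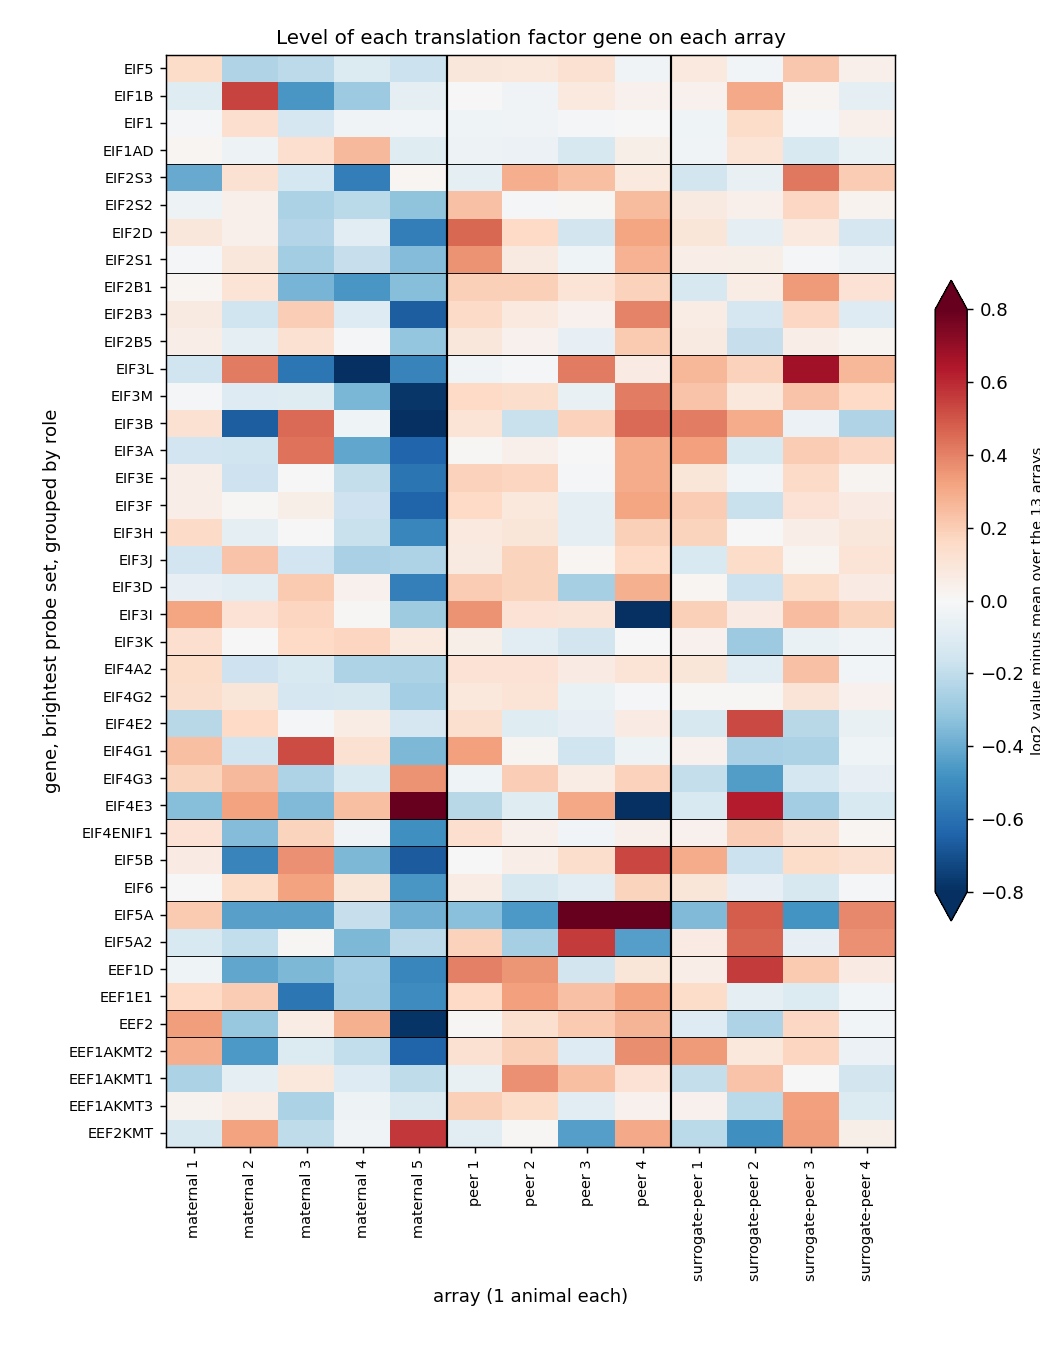
Heat map of the main probe set of each tested factor, in rows ordered by role, on the 13 arrays, in columns ordered by rearing group. Colour is the log2 value minus the gene's mean over the 13 arrays, with the scale ended at -0.8 and 0.8; the column of maternal animal 5 is low across most rows, and the mean over the 40 genes was -0.31 there against 0.03 to 0.12 in the non-maternal animals.

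Averaged over the 40 genes, the deviation from the gene mean was 0.02, -0.04, -0.06, -0.14 and -0.31 on the maternal arrays, 0.10, 0.06, 0.05 and 0.12 on the peer arrays and 0.05, 0.03, 0.08 and 0.03 on the surrogate-peer arrays. By this mean the lowest non-maternal array, at 0.0318, was just above the highest maternal one, at 0.0229. By the median over the 40 genes the groups overlapped, with maternal 1 at 0.0383 above peer 3 (-0.0065) and surrogate-peer 2 (0.0029) and 4 (0.0198). The difference of the group means was 0.17, and 0.12 without maternal animals 2 and 5. These averages describe the members and carry no test.

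**Figure D2:**
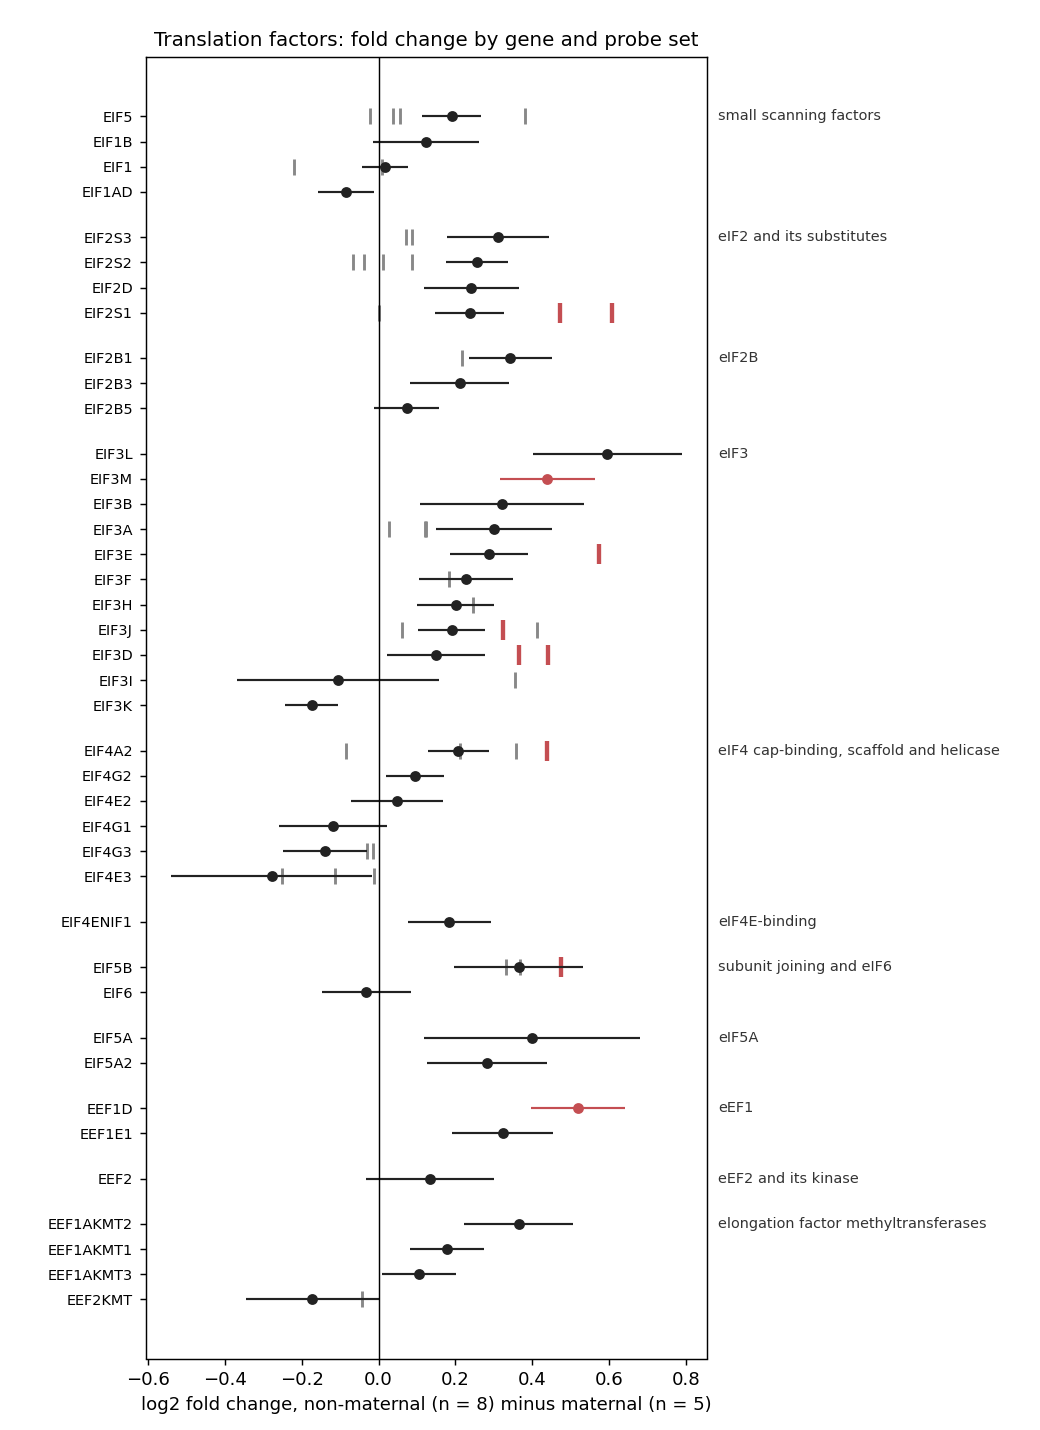
Log2 fold change of non-maternal against maternal animals for each tested factor, ordered by role; points are the main probe set with its SE, ticks are the gene's other tested probe sets, and red marks an adjusted p under 0.05. Most points lie right of 0, the called ones being EEF1D (0.52) and EIF3M (0.44), and the eIF4 group lies on both sides.

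Of 4 genes listed with the small factors that scan for the start codon, none was called. Standing in this list does not show that a gene takes part in scanning. EIF5, which makes eIF2 hydrolyse its GTP at the start codon, had the highest fold change of the group at 0.19, and EIF1AD, a protein with an eIF1A-like domain, the lowest at -0.09. EIF1, the guardian of start codon accuracy, stood at 0.02 and its close copy EIF1B at 0.12. EIF1 and EIF5 each had a dimmer probe set of the opposite sign, at -0.22 and -0.02, while another of EIF5 stood at 0.38 (adjusted p = 0.0542, limma).

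The eIF2 group was positive at the main probe set of all 4 genes, with a median of 0.25, and none of the 4 was called there. EIF2S2 encodes the beta subunit, which contacts eIF5 and eIF2B. Its log2 values were 10.95, 11.03, 10.74, 10.77 and 10.67 in maternal, 11.23, 10.97, 10.997 and 11.25 in peer and 11.06, 11.03, 11.15 and 11.02 in surrogate-peer animals. Maternal 2 lay inside the non-maternal range, and the other 4 maternal animals were below every non-maternal animal. The fold change was 0.26 ± 0.08 (SE, adjusted p = 0.0639, limma), and its 4 dimmer probe sets ran from -0.07 to 0.09. EIF2S3, the gamma subunit that binds GTP and the tRNA, had 0.31 and EIF2D, which can load tRNA on the ribosome in place of eIF2, had 0.24.

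EIF2S1 encodes the alpha subunit, the one that stress kinases phosphorylate. At its main probe set the values were 9.35, 9.45, 9.08, 9.18 and 9.02 in maternal, 9.72, 9.43, 9.33 and 9.64 in peer and 9.42, 9.41, 9.35 and 9.32 in surrogate-peer animals. Maternal 1 and 2 lay inside the non-maternal range, and the fold change of 0.24 ± 0.09 (SE) was not called (adjusted p = 0.112, limma). The gene rose at 2 of its 4 tested probe sets, by 0.47 (adjusted p = 0.0423) and 0.61 (adjusted p = 0.0419), while the remaining one stood at 0.00. At the probe set with 0.61 the values were 7.76, 6.87, 7.80, 7.18 and 7.09 in maternal, 7.87, 8.16, 7.98 and 8.06 in peer and 8.05, 7.52, 8.09 and 7.86 in surrogate-peer animals. There 7 of 8 non-maternal animals exceeded every maternal animal, and surrogate-peer 2 lay inside the maternal range. Without 1 animal the call at the 0.61 probe set held only for maternal 1 or 3 or surrogate-peer 2, and at the 0.47 probe set only for maternal 1 or surrogate-peer 2; otherwise adjusted p-values were 0.0513 to 0.112.

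The 3 measured subunits of eIF2B were positive, with a median of 0.21, and none was called. EIF2B1, the alpha subunit through which eIF2B senses phosphorylated eIF2, read 9.53, 9.63, 9.14, 9.05 and 9.18 in maternal, 9.71, 9.71, 9.63 and 9.70 in peer and 9.39, 9.58, 9.86 and 9.64 in surrogate-peer animals. Maternal 3 to 5 were again below all other animals, surrogate-peer 1 and 2 were below maternal 2, and the fold change was 0.34 ± 0.11 (SE, adjusted p = 0.0673, limma). The gamma subunit EIF2B3 stood at 0.21 and the catalytic epsilon subunit EIF2B5 at 0.07.

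The eIF3 complex, the scaffold that holds the factors and the message on the small subunit, held 5 of the 10 called member probe sets. Of 11 genes 9 were positive at the main probe set, with a median of 0.23, and EIF3M rose. Over all tested probe sets of the complex, 5 of 23 were called higher and 21 were positive, against 6.64% called higher among all tested probe sets. Probe sets of 1 gene read the same transcripts and are not independent.

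EIF3M, a subunit of the complex's structural core, read 11.41, 11.32, 11.32, 11.05 and 10.64 in maternal, 11.58, 11.56, 11.36 and 11.83 in peer and 11.65, 11.50, 11.64 and 11.58 in surrogate-peer animals. Maternal 5 was the lowest animal, and 7 of 8 non-maternal animals were above every maternal animal, peer 3 being the exception. The rise was 0.44 ± 0.12 (SE, adjusted p = 0.0491, limma). It lay at the threshold: without any single animal other than maternal 1 the call was lost, with fold changes of 0.31 to 0.48 and adjusted p-values of 0.0558 to 0.124, and after array centring it was 0.38 (adjusted p = 0.0614). Without maternal 1 it was 0.50 (adjusted p = 0.0209).

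EIF3L and EIF3K form a pair at the edge of the complex, and their values went in different directions. EIF3L read 10.28, 10.86, 9.86, 9.47 and 9.91 in maternal, 10.41, 10.43, 10.86 and 10.51 in peer and 10.71, 10.63, 11.11 and 10.71 in surrogate-peer animals. Maternal 2 was higher than 7 of the 8 non-maternal animals while the other maternal animals were below them all, and the fold change was 0.60 ± 0.19 (SE, adjusted p = 0.0725, limma). EIF3K read 6.53, 6.39, 6.56, 6.56 and 6.47 in maternal, 6.44, 6.30, 6.24 and 6.396 in peer and 6.43, 6.10, 6.34 and 6.36 in surrogate-peer animals, close to the filter throughout. Its fold change was -0.17 ± 0.07 (SE, adjusted p = 0.123, limma), with 5 of 8 non-maternal animals below every maternal animal.

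EIF3E and EIF3D take part in binding the message, EIF3D by a cap-binding activity of its own. EIF3E at its main probe set read 13.07, 12.84, 13.02, 12.82 and 12.43 in maternal, 13.20, 13.18, 12.99 and 13.31 in peer and 13.11, 12.99, 13.17 and 13.03 in surrogate-peer animals, a fold change of 0.29 ± 0.10 (SE, adjusted p = 0.0920, limma) with 5 of 8 non-maternal animals above every maternal one. At a dimmer probe set the gene rose by 0.57 (adjusted p = 0.0316), with values of 10.80, 11.23, 10.54, 10.37 and 10.45 in maternal, 11.34, 11.34, 11.13 and 11.38 in peer and 11.02, 11.20, 11.46 and 11.15 in surrogate-peer animals. Maternal 2 was the only maternal animal inside the non-maternal range there, and the call was lost without maternal 3, 4 or 5, peer 1, 2 or 4 or surrogate-peer 3 (adjusted p = 0.0553 to 0.0893).

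EIF3D stood at 0.15 at its main probe set and rose at a dimmer pair, by 0.36 (adjusted p = 0.0477, limma) and 0.44 (adjusted p = 0.0306). The probe set with 0.44 read 8.87, 9.36, 9.19, 8.90 and 8.89 in maternal, 9.44, 9.49, 9.32 and 9.70 in peer and 9.40, 9.33, 9.53 and 9.66 in surrogate-peer animals, so that peer 3 and surrogate-peer 2 lay below maternal 2 and the rest were separate. Its call was lost without maternal 4 or 5, peer 1, 2 or 4 or surrogate-peer 3 (adjusted p = 0.0533 to 0.0891), and that of the 0.36 probe set without any 1 animal other than maternal 2 or peer 3 (0.0539 to 0.123). EIF3J, a loosely bound subunit near the decoding site, stood at 0.19 at its main probe set and rose by 0.32 (adjusted p = 0.0425) at a dimmer one. There maternal animals read 8.25, 8.20, 8.07, 7.97 and 7.84, peer animals 8.58, 8.44, 8.29 and 8.497 and surrogate-peer animals 8.36, 8.41, 8.41 and 8.13, the last being the only non-maternal value inside the maternal range. The EIF3J call held without maternal 1 or surrogate-peer 4 and was lost without any other animal (adjusted p = 0.0502 to 0.113).

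The remaining eIF3 genes were not called. EIF3A, the largest core subunit, stood at 0.30 and its partner EIF3B at 0.32, while the core subunits EIF3F and EIF3H stood at 0.23 and 0.20. EIF3I was -0.11 at its main probe set, where peer 4 read 9.80 against 11.48 to 11.73 in the other peer animals, and 0.36 at its other one.

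The tested genes of the eIF4 group, which recruits capped messages, lay on both sides of 0. EIF4A1, EIF4A3, EIF4B and EIF4H had no probe set matched by 1 symbol, and EIF4E was below the filter. The values therefore cover eIF4F only in part. Of 6 tested genes 3 were positive, the median was -0.04, and none was called at its main probe set; over all its tested probe sets 6 of 15 were positive and 1 was called higher. EIF4A2, one of the helicases that unwind the leader of the message, read 13.21, 12.90, 12.94, 12.81 and 12.81 in maternal, 13.18, 13.18, 13.13 and 13.17 in peer and 13.15, 12.98, 13.30 and 13.04 in surrogate-peer animals. Maternal 1 was above 7 of the 8 non-maternal animals and the other maternal animals were below them all, with a fold change of 0.21 ± 0.08 (SE, adjusted p = 0.114, limma). The called probe set of the group is a dimmer one of EIF4A2, at 0.44 (adjusted p = 0.0431), and over the gene's 5 tested probe sets the fold change ran from -0.09 to 0.44. That dimmer probe set read 11.43, 11.37, 10.93, 10.80 and 11.15 in maternal, 11.65, 11.62, 11.67 and 11.49 in peer and 11.45, 11.38, 11.87 and 11.45 in surrogate-peer animals, surrogate-peer 2 being the only non-maternal animal inside the maternal range. That call held without maternal 1 or 2 and was lost without any other animal (adjusted p = 0.0513 to 0.115).

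EIF4G3, a scaffold that links cap, helicase and eIF3, was the member with the lowest unadjusted p between the non-maternal groups. It read 9.81, 9.89, 9.39, 9.51 and 9.99 in maternal, 9.60, 9.83, 9.69 and 9.82 in peer and 9.44, 9.18, 9.49 and 9.56 in surrogate-peer animals. All 4 surrogate-peer animals were below all 4 peer animals, and the maternal animals spanned the range of peer values. Such a gap below the peer animals was seen at the main probe set of 2 of 40 members, EIF4G3 and EEF1E1, and of 0.942% of named genes. None had one above, against 0.89%. The dimmer probe sets of EIF4G3 did not show the gap. There surrogate-peer and peer animals overlapped and differed by -0.24 and 0.10 (unadjusted p = 0.186 and 0.443, limma). Against maternal animals the main probe set of EIF4G3 stood at -0.14 ± 0.11 in the pooled non-maternal animals (SE, adjusted p = 0.403, limma). That fold change was 0.01 without maternal animals 2 and 5. The main scaffold EIF4G1 stood at -0.12 and EIF4G2, which lacks the site for eIF4E, at 0.09.

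EIF4E3, a cap-binding relative of eIF4E, had the lowest fold change of all members, -0.28, and all 4 of its tested probe sets were negative, from -0.28 to -0.01. Its maternal values had an SD of 0.56, and the adjusted p was 0.487 (limma). EIF4E2, a cap-binding protein that mostly represses translation, stood at 0.05, and EIF4ENIF1, which takes eIF4E into the nucleus and to P-bodies, at 0.18.

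EIF5B, the GTPase that joins the ribosomal subunits, stood at 0.36 at its main probe set (adjusted p = 0.173, limma), and its 4 tested probe sets ran from 0.33 to 0.47. It rose by 0.47 (adjusted p = 0.0271) at the dimmest, with values of 7.72, 7.21, 7.40, 7.17 and 7.03 in maternal, 8.02, 7.71, 7.75 and 7.89 in peer and 7.75, 7.68, 7.71 and 7.72 in surrogate-peer animals. Maternal 1 alone reached the non-maternal range, and that call was lost without maternal 4 or 5, peer 1 or surrogate-peer 3, with adjusted p-values of 0.0528 to 0.0781. EIF6, which keeps free large subunits from joining, stood at -0.03. EIF5A, which helps the ribosome through difficult peptide bonds, stood at 0.40, and its relative EIF5A2 at 0.28. Neither was called (adjusted p = 0.353 and 0.246).

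**Figure D3:**
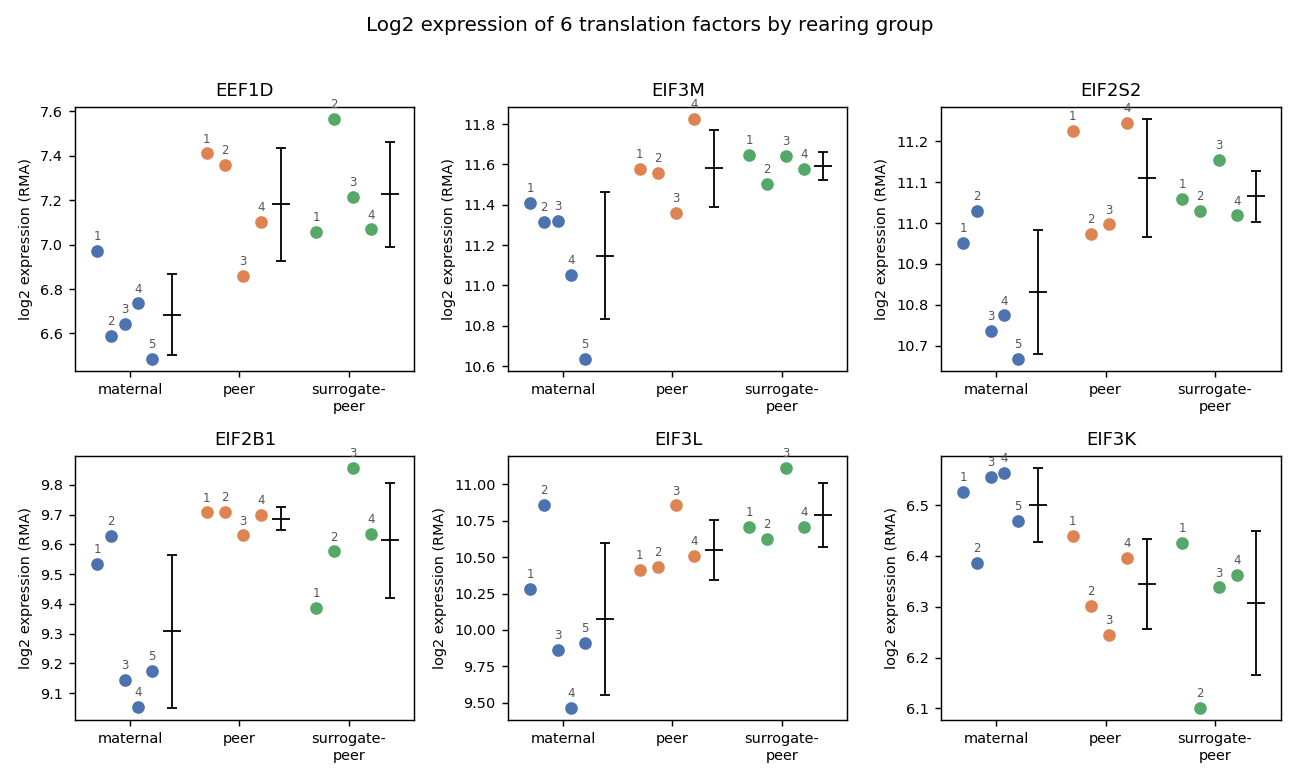
Log2 expression of translation factors by rearing group; each dot is 1 array, numbered by replicate, and the bar is the group mean with its SD (n = 5 maternal, 4 peer, 4 surrogate-peer). EEF1D has 7 of 8 non-maternal animals above every maternal animal, and in EIF3L the maternal animal 2 lies with the non-maternal groups.

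Among elongation factors, EEF1D rose. It encodes the delta subunit of the eEF1B exchange complex, which puts fresh GTP on eEF1A, and has 1 probe set. It read 6.97, 6.59, 6.64, 6.74 and 6.49 in maternal, 7.41, 7.36, 6.86 and 7.10 in peer and 7.06, 7.57, 7.22 and 7.07 in surrogate-peer animals. Peer 3 was inside the maternal range, below maternal 1, and the other 7 non-maternal animals exceeded every maternal animal. The rise was 0.52 ± 0.12 (SE, adjusted p = 0.0308, limma), the smallest adjusted p at a main probe set. The call was lost without maternal 2, 3, 4 or 5, peer 1 or 2 or surrogate-peer 3, with fold changes of 0.47 to 0.53 and adjusted p-values of 0.0542 to 0.0781.

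EEF1E1, a scaffold protein of the multi-tRNA synthetase complex that carries an eEF1 name, read 9.22, 9.27, 8.48, 8.79 and 8.56 in maternal, 9.22, 9.39, 9.30 and 9.39 in peer and 9.21, 8.99, 8.95 and 9.04 in surrogate-peer animals. Maternal 1 and 2 were level with the lower peer animals, above all surrogate-peer animals, and maternal 3 to 5 were below all others, with a fold change of 0.32 ± 0.13 (SE, adjusted p = 0.130, limma). EEF2, the translocase, stood at 0.13 ± 0.17 (SE, adjusted p = 0.610).

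Of the enzymes that methylate elongation factors, 3 of 4 were positive and none was called. EEF1AKMT2, which methylates a lysine of eEF1A, read 9.15, 8.40, 8.75, 8.66 and 8.22 in maternal, 8.98, 9.05, 8.76 and 9.23 in peer and 9.20, 8.94, 9.03 and 8.81 in surrogate-peer animals. Maternal 1 lay near the top and maternal 2 and 5 at the bottom, with a fold change of 0.36 ± 0.14 (SE, adjusted p = 0.116, limma). EEF1AKMT1 stood at 0.18, EEF1AKMT3 at 0.10 and EEF2KMT, the eEF2 methyltransferase, at -0.17.

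EEF1A1, the eEF1A form of most tissues and the carrier of aminoacyl-tRNA, is read by control probe sets placed toward its 3' end, its middle and its 5' end. The 3' probe set gave 14.72, 14.61, 14.70, 14.68 and 14.65 in maternal, 14.67, 14.71, 14.69 and 14.69 in peer and 14.71, 14.70, 14.69 and 14.69 in surrogate-peer animals, with the groups fully overlapping. The 5' probe set gave 14.36, 14.44, 14.21, 14.13 and 14.26 in maternal, 14.47, 14.50, 14.51 and 14.48 in peer and 14.46, 14.43, 14.59 and 14.48 in surrogate-peer animals, where maternal 2 was the only maternal animal not below all others. In a fit that admitted these probe sets, chosen after the data were seen, the fold change was 0.02 ± 0.05 (SE, adjusted p = 0.761, limma) at the 3' probe set and 0.21 ± 0.06 (adjusted p = 0.0597) at the 5' probe set. The middle pair gave 0.24 ± 0.07 (adjusted p = 0.0470) and 0.17 ± 0.06 (adjusted p = 0.0902). The 3' value minus the 5' value of the same array was 0.39 ± 0.14 (SD, n = 5) in maternal and 0.20 ± 0.05 (SD, n = 8) in non-maternal animals.

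**Figure D4:**
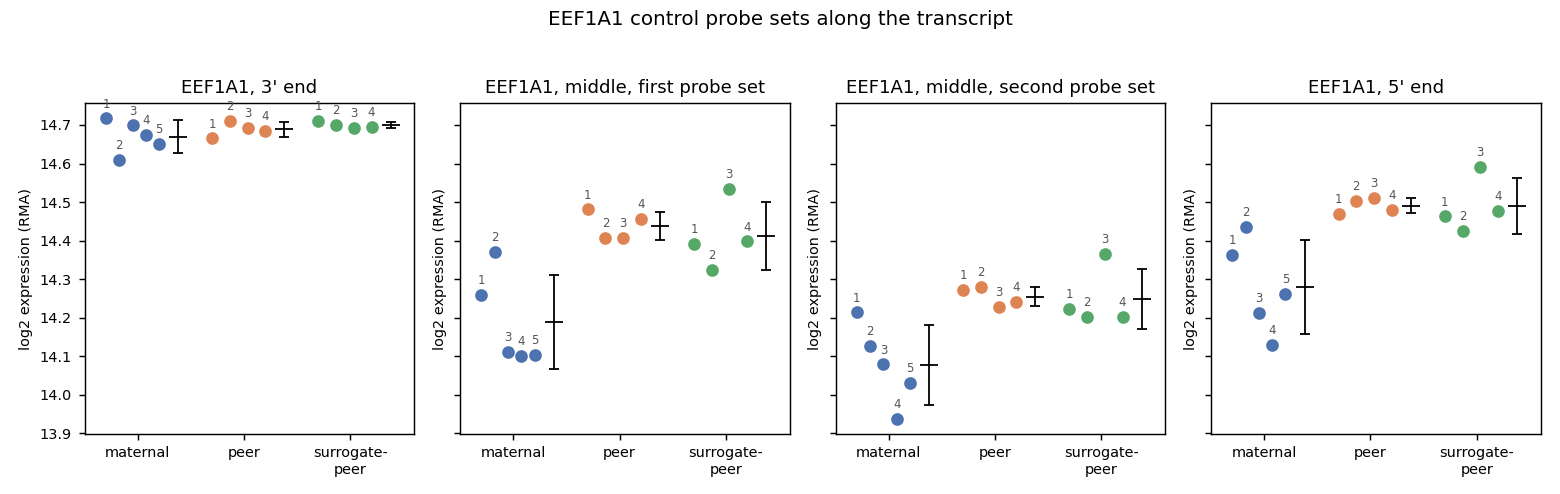
Log2 expression at the 4 control probe sets of EEF1A1 by rearing group, 1 dot per array with mean and SD. The 3' probe set reads 14.61 to 14.72 in every group, and at the 5' probe set the maternal animals, 14.13 to 14.44, lie mostly below the others, 14.43 to 14.59.

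Counting every tested probe set, 10 of 81 were called higher and none lower, 12.3% against 6.64% higher and 1.35% lower among all tested probe sets, and 62 were positive, with a median of 0.18. They belong to 8 of 40 genes, or 20%, against 9.52% of named genes called higher at any tested probe set; members had 2.02 tested probe sets per gene and all named genes 1.59. The 6 genes called only at a dimmer probe set were EIF2S1, EIF3D, EIF3E, EIF3J, EIF4A2 and EIF5B. Of 18 members with several tested probe sets, 5 had probe sets of both signs. No member probe set separated the groups completely. At main probe sets of named genes 1.58% had every non-maternal animal above every maternal one and 1.06% every one below, and the same held for 1.89% and 0.97% of all tested probe sets. The 10 became 4 after array centring and 0 without maternal animals 2 and 5, and leaving out 1 animal gave from 0, without maternal 4 or 5, peer 1 or surrogate-peer 3, to 20, without maternal 1. The other omissions gave 9 (maternal 2), 4 (maternal 3), 1 (peer 2), 5 (peer 3), 2 (peer 4), 4 (surrogate-peer 1), 6 (surrogate-peer 2) and 5 (surrogate-peer 4).

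Each non-maternal group was also set against the maternal animals. Both comparisons use the same 5 maternal animals. In peer against maternal animals no member was called, beside 0.166% of named genes higher and 0.031% lower and 0.311% and 0.0417% of all tested probe sets. An unadjusted p under 0.05 (limma) was found for 11 of 40 members, all positive. Of 9665 named genes 1618 positive and 877 negative ones had such a p, and 1074 and 314 of the 4832 with the higher means. The median of the members was 0.23, and EEF1D had the lowest adjusted p, 0.0782, with a fold change of 0.50 ± 0.14 (SE, limma). Without maternal animal 1, 7 members were called, beside a rise from 0.352% to 13.2% of all tested probe sets.

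In surrogate-peer against maternal animals no member and no probe set at all was called (0%, limma). Of the 40 members, 6 positive and 2 negative ones had an unadjusted p under 0.05 (limma), beside 1260 positive and 680 negative of 9665 named genes. Of the 4832 named genes with the higher means, 842 and 271 had such a p. The median of the members was 0.16. It was 0.09 after array centring, 0.10 after quantile normalization, 0.09 without maternal animals 2 and 5 and 0.31 with the title number as covariate. The title number is the number in the sample title, and the labels do not give its meaning. It ran from 31 to 55 in maternal, 35 to 47 in peer and 9 to 32 in surrogate-peer animals, so it moves with the rearing groups. EEF1D stood at 0.54 ± 0.14 (SE, adjusted p = 0.101, limma), EIF3L at 0.71 ± 0.23 (adjusted p = 0.129) and EIF3M at 0.45 ± 0.15 (adjusted p = 0.136). For comparison, peer against maternal gave 0.48 for EIF3L and 0.43 for EIF3M. EEF1E1 stood at 0.46 in peer and 0.19 in surrogate-peer animals and EIF4G3 at 0.02 and -0.30. Without maternal animal 1, 1 member was called, beside 7.95% of all tested probe sets.

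No member passed the test between the peer and surrogate-peer groups, nor did any probe set of the array (0%, limma). Between surrogate-peer and peer animals 15 members were positive and 25 negative, with a median of -0.04. That direction turned with the title number as covariate, to 30 positive and 10 negative with a median of 0.09, and with the 3' to 5' ratio as covariate, to 22 and 18 with a median of 0.01. Title numbers of all surrogate-peer animals were below those of all peer animals, so the fit with that covariate cannot separate the number from the rearing. EIF4G3 was the only member with an unadjusted p under 0.05, at -0.31 ± 0.14 (SE, adjusted p = 1). Of 9665 named genes, 60 positive and 122 negative ones had an unadjusted p under 0.05 there (limma). The median absolute difference was 0.0655 over the members and 0.0738 over all named genes. In the test for any difference among the 3 groups no member was called, beside 0.031% of named genes and 0.0872% of all tested probe sets. EEF1D was lowest (adjusted p = 0.0984, limma F test). An unadjusted p under 0.05 in that test was found for 8 of 40 members, beside 5267 of all 26383 tested probe sets.

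TOP messages formed a further list. Of 8 listed members 5 were tested, all 5 were positive, with a median of 0.23, and EEF1D rose. Beside them, 50.7% of named genes were positive and 6.29% called higher, and 62.7% and 8.36% of those with the higher means. EIF3E, EIF3H, EIF3F and EEF2 are the others tested. All 5 are members, and of all 40 tested members 80% were positive, with a median of 0.20. EEF1A1, also on the list but outside the fit, stood at 0.02 at its 3' probe set. With EEF1A1 included, the mean deviation of the list was 0.23 higher in non-maternal than in maternal animals, and 0.10 higher without maternal 2 and 5.

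Genes that control or continue the work of these factors were read from lists that hold no member, each gene by its main probe set. Of the mTORC1 and MNK list, 2 of 12 tested genes (16 listed) rose and none fell. RPS6KB1, the S6 kinase that phosphorylates ribosomal protein S6 and EIF4B, rose by 0.69 ± 0.13 (SE, adjusted p = 0.0212, limma). RHEB, the GTPase that switches mTORC1 on, rose by 0.38 ± 0.10 (SE, adjusted p = 0.0441), and LARP1, the repressor of TOP messages, stood at 0.31 (adjusted p = 0.0782). Of the list around eIF2 phosphorylation, 1 of 6 tested (12 listed) rose. That was IMPACT, an inhibitor of the eIF2 kinase GCN2, by 0.49 ± 0.12 (SE, adjusted p = 0.0346, limma). The mean of IMPACT was 5.97 in maternal animals, below the filter of 6.04, and 6.46 in non-maternal animals. It was thus tested only through the group in which it was higher. The kinase EIF2AK3 stood at 0.39 (adjusted p = 0.0940, limma) and the stress transcription factor ATF4 at -0.18 (adjusted p = 0.194).

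Of the mitochondrial translation factors 2 of 9 tested rose, GFM1, a mitochondrial elongation factor, by 0.43 ± 0.12 (SE, adjusted p = 0.0462, limma) and MTRF1, a mitochondrial release factor, by 0.34 ± 0.09 (SE, adjusted p = 0.0477). GFM2, the ribosome recycling partner, stood at 0.41 (adjusted p = 0.0921). None of 6 tested poly(A)-binding, termination and recycling genes (13 listed) was called at its main probe set. The smallest p-values in limma were those of PABPC4, a poly(A)-binding protein, at 0.29 (adjusted p = 0.0625), ETF1, the release factor, at 0.24 (adjusted p = 0.0800) and PAIP1 at 0.16. None of 7 tested enzymes of eIF5A hypusination and eEF2 diphthamide synthesis (9 listed) was called at its main probe set. DPH6 stood at 0.36, DPH2 at 0.22 and DPH5 at 0.22. The mean of DPH5 was 5.97 in maternal animals, below the filter of 6.04, and 6.19 in non-maternal animals. None of 13 tested cytosolic tRNA synthetases and partners (22 listed) was called at its main probe set. LARS1 stood at 0.33 (adjusted p = 0.0582, limma), GARS1 at 0.35 and AIMP1 at 0.20. Beside these counts stands the background of 6.29% of named genes called higher. Other probe sets were called, in either direction, for PABPC4 (1 of 1 other tested), PAIP1 (1 of 2), DPH6 (1 of 1) and AIMP1 (2 of 3). Among genes that rose they were called for GFM1 (2 of 4), MTRF1 (1 of 1), RPS6KB1 (1 of 2) and RHEB (1 of 1). Of all named genes 9.52% were called higher at any tested probe set.

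The members varied most among maternal animals. The SD was highest in the maternal group for 29 of 40 members, in the peer group for 6 and in the surrogate-peer group for 5, with medians of 0.26, 0.14 and 0.15. The same was true of 62.2% of all named genes, with medians of 0.23, 0.14 and 0.15. The fit shares 1 estimate of the spread over the groups, so errors against maternal animals are too small for members that vary most there. EEF1D is not one of them: its SD was 0.184 among maternal animals, 0.255 among peer animals and 0.237 among surrogate-peer animals.

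Cell type markers were read on the same arrays, as the mean deviation of each list from its gene means. The 9 T cell genes measured (of 16 listed) had maternal values of -0.56 to -0.0032 and non-maternal values of -0.05 to 0.36, with maternal 2 and 5 lowest. The difference was 0.45, and 0.27 without those animals. The 12 monocyte genes (of 14) had maternal values of -0.49 to 0.82 and non-maternal values of -0.56 to 0.53, with maternal 2 at 0.75 and maternal 5 at 0.82. The 11 NK and cytotoxic genes (of 14) had 0.06 to 0.90 in maternal and -0.91 to 0.45 in non-maternal animals. Their difference was -0.92, and 5 of 11 were called lower. The 9 B cell genes (of 12) had 0.03 to 0.99 and -1.15 to 0.54, a difference of -0.63, and 1 of 9 was called lower. In the T cell list 1 of 9 was called higher, and in the monocyte list 1 of 12 was called lower. The B cell genes also differed within the non-maternal animals: all 9 were lower in surrogate-peer than in peer animals at an unadjusted p under 0.05 in limma, none passed after adjustment, and the median was -0.90. That difference stands beside those of EIF4G3 and EEF1E1 between the same groups. The 8 dendritic cell and basophil genes (of 10) were 0.52 higher on average in non-maternal animals, with 2 of 5 tested called higher. The 7 neutrophil genes (of 10) differed by -0.45, with none of 5 tested called. The 7 plasma cell genes (of 8) differed by -0.31, with 1 of 7 called lower. Beside these calls, 6.29% of all named genes were called higher and 1.69% lower. The part of cell type shares in the results on translation factors was not tested. Without maternal 2 and 5 the median fold change of the members was 0.12, with 30 of 40 positive, and no member was called, while calls over all tested probe sets fell from 7.99% to 0.14%.

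**Figure D5:**
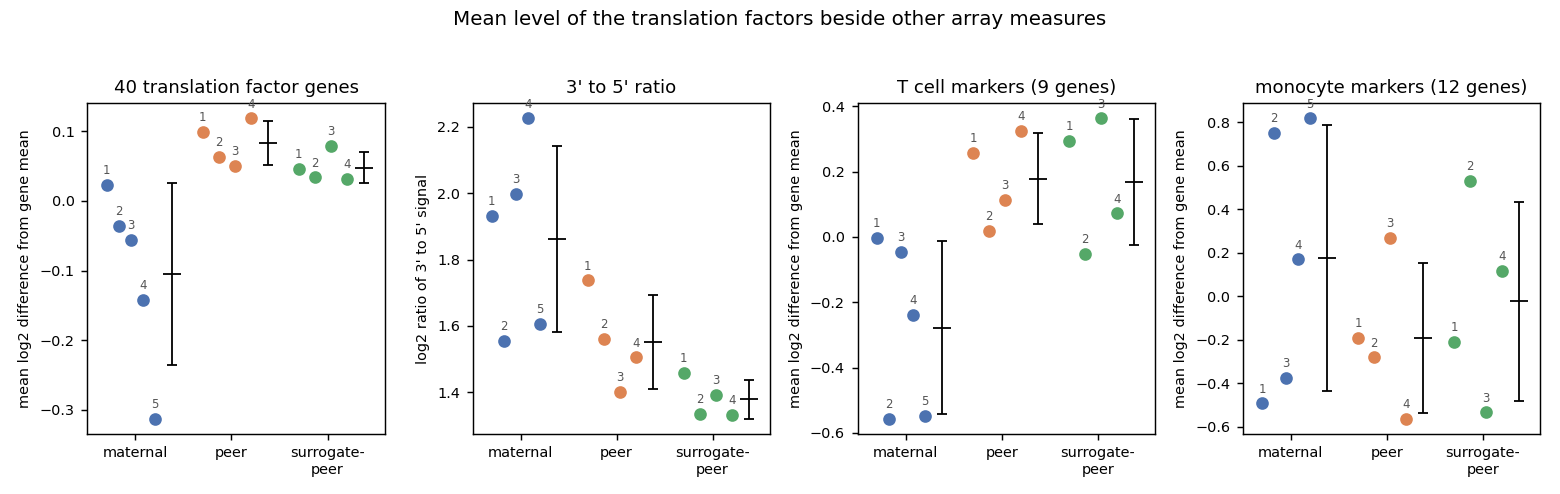
Panels, left to right, show the mean log2 deviation of the 40 translation factors, the log2 3' to 5' ratio of the actin and GAPDH controls, and the mean log2 deviations of the T cell and monocyte marker lists, by rearing group; each dot is 1 array and the bar is the mean with its SD (n = 5, 4 and 4). The factors span -0.31 to 0.02 in maternal and 0.03 to 0.12 in non-maternal animals, maternal 2 and 5 have the lowest T cell and the highest monocyte values, and the ratio of all 4 surrogate-peer arrays is below every maternal one.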

How the data were processed

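Values are the authors' deposited log2 expression per probe set, made with RMA (robust multi-array average), per the submitters' processing notes, with the RMA version, its settings and any joint normalization of the arrays not given in the sources used here. The log2 scale was taken from the values. The number of arrays limits the precision.

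Of 52865 probe sets, 99 Affymetrix controls were left out, and 26383 with a mean over 13 arrays above the median of those means (6.04) were tested. The platform annotation gives 1 symbol to 24956 of the 52766 remaining probe sets, several to 361 and none to 27449; genes were named only from the first, and 1 probe set pairing EIF4A2 with another gene was left out. Of 64 factor genes listed by role, 43 were matched and 21 are not analysed here.

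Groups came from the rearing labels, with 1 array per animal; p-values measure the spread between these animals. limma 3.58.1 in R 4.3.3 (lmFit, eBayes) fitted all 13 arrays with 1 mean per group. Contrasts were the mean of both non-maternal groups minus maternal, each non-maternal group minus maternal, and surrogate-peer minus peer, plus an F test. The fit was tested on simulated data. Alternatives covered array centring, quantile normalization, filters, array weights, trended variance, covariates, probe set averaging and left-out arrays; fits that admitted the EEF1A1 controls or left out 59 reporter probe sets were added after seeing the data.

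Members and gene lists were chosen with earlier results of these data known. Values on every array were given for members past the threshold, filled to 12 by the smallest F test p, and for the largest fold of dimmer probe sets that were called; in each role class the highest and lowest fold changes were named, and up to 3 genes of each pathway list by smallest p.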

Additional observations from a re-analysis of the deposited data

Results flagged for a closer look

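Values that stood apart from the other animals of their group were sought with Dixon's test at the 95% level. It marked 6 of 147 groups of values, and chance marks about 1 in 20. EIF3I read 9.80 in peer animal 4 against 11.48 to 11.73 in the other peer animals, the widest gap of the 6. EIF3L read 11.11 in surrogate-peer animal 3 against 10.63 to 10.71, and a middle probe set of EEF1A1 read 14.37 in the same animal against 14.20 to 14.22. EIF3J read 9.90 in maternal animal 2 against 9.41 to 9.52. EIF3A read 9.30 in peer animal 4 against 9.001 to 9.041, and EIF2B1 read 9.63 in peer animal 3 against 9.70 to 9.71, a gap of under 0.1.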

How the results depend on the processing

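The count of members called between non-maternal and maternal animals, 2 of 40, became 1 under array centring, quantile normalization, no filter, array weights and a trended robust fit, 4 with the title number as covariate, 4 when probe sets of a gene were averaged, and 0 without maternal arrays 2 and 5. It was also 1 under a stricter filter, a mean above 7.71, with fewer members tested. EEF1D, with a mean of 7.00, did not pass that filter and was not tested there. Leaving out 1 array gave 0 to 9. The 10 member probe sets called became 4 under centring, 3 under quantile normalization, 4 with no filter, 6 with the 3' to 5' ratio as covariate and 0 without maternal arrays 2 and 5, and 0 to 20 when 1 array was left out. Peer against maternal went from 0 to 1 member called with the title number or the 3' to 5' ratio as covariate, and gave 0 to 7 when 1 array was left out; surrogate-peer against maternal and the F test gave 0 to 1, and surrogate-peer against peer 0. The median fold change of the members ranged, when 1 array was left out, from 0.13 to 0.26 in non-maternal, 0.16 to 0.26 in peer and 0.11 to 0.20 in surrogate-peer against maternal, and from -0.07 to -0.01 in surrogate-peer against peer; with the title number as covariate the surrogate-peer median was 0.31 in place of 0.16, and that of surrogate-peer against peer turned from -0.04 to 0.09 (30 of 40 positive), as it did with the 3' to 5' ratio (0.01, 22 positive). Title numbers of all surrogate-peer animals lay below those of all peer animals, so values with that covariate cannot separate the number from the rearing there. Surrogate-peer against maternal was 0.09 under centring, 0.10 under quantile normalization and 0.09 without maternal arrays 2 and 5. EIF4G3 reversed, to 0.01 (limma adjusted p = 0.964), without maternal arrays 2 and 5. For single fold changes outside left-out arrays, 178 kept their side of the threshold, 46 lost a call, 4 gained one and 1 reversed; with 1 array left out, 162 kept it, 90 lost it and 8 gained it. Apart from fewer arrays or other filters, the cause of these changes was not tested. Fitting only the arrays compared gives no separate value for the pooled contrast or the F test. No paired analysis was possible because the labels give no replicate numbers shared between groups.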
